A study of Mus musculus with 24 samples.

Results

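Transcripts of 10 genes of chromatin repressor complexes were followed in the injured mouse spinal cord. Of these, 8 encode subunits of Polycomb repressive complex 2 (Ezh1, Ezh2, Eed, Suz12, Jarid2, Mtf2, Phf1 and Phf19) and 2 belong to the CoREST complex (Kdm1a and Rcor3). The genes were taken by name from a table of 21965 genes, and all 10 were among the 17167 genes with enough counts to be tested. All groups came from OL-Ribotag mice that had received tamoxifen, so that a hemagglutinin (HA) tag was placed on the ribosomal protein RPL22 in cells with an active inducible Cre. Mature oligodendrocytes (OLs) are the main such cells, but the same transgene is also active in Schwann cells. Female mice were used. Injured mice were 10 to 12 weeks old at injury per the labels, whereas the methods give a younger range. The labels give no age for uninjured mice. Per the paper, their cords were collected on the same day as those taken 42 days after injury. They were therefore older, and further from tamoxifen, than mice killed 2 or 10 days after injury. In comparisons with those earlier days, age and time since tamoxifen cannot be told apart from injury. The groups were uninjured (naive) mice and mice killed 2, 10 or 42 days after a contusion (50 kdyn) of the spinal cord at thoracic level 9, abbreviated dpi 2, dpi 10 and dpi 42. In each group, 3 pools of cord from 2 mice each were split into RNA on HA-precipitated ribosomes (OL RNA) and the input RNA from which it was precipitated (total RNA), which gave 24 libraries in 8 groups of 3.

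PRC2 places methyl groups on lysine residues of histone H3 that mark silent genes. EZH1 and EZH2 are its alternative methyltransferases, EED binds the methyl mark, SUZ12 holds the complex together, and the accessory subunits steer it to chromatin. EZH2 is the form known from dividing cells and EZH1 the form known from cells that no longer divide. CoREST is built on an RCOR scaffold that joins the histone demethylase KDM1A to histone deacetylases. It is best known for silencing neuronal genes outside neurons. The paper describes RCOR3 as counteracting this KDM1A-driven silencing.

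The libraries held 25840127 to 32987841 counts. In the pool labelled dpi 2 replicate 2, genes of the Y chromosome had at least 2414 counts in both the OL and the total library, against at most 13 in any other library, although the labels give female mice. Another pair of libraries, dpi 42 total replicate 2 and dpi 42 OL replicate 1, carries titles that contradict their descriptions. They were grouped by description, and their mature OL marker levels lay with the kind of RNA that the description names. Values that rest on either pair are given below without it where its removal ended a call. Mature OL markers (8 genes such as Mbp and Mog) summed to 96315 to 157866 CPM (counts scaled to library size) in the OL libraries and 19318 to 27881 CPM in the total libraries, with no overlap. All 9 microglia and macrophage markers rose after injury in OL and in total RNA on each day. Their sum was 14.2 to 21.2 CPM in naive OL RNA and 94.0 to 322 CPM in injured OL RNA, and stayed below the 1691 to 5867 CPM of injured total RNA. Schwann cell markers summed to 60.6 to 762 CPM in naive OL RNA and 391 to 1706 CPM in injured OL RNA. The 5 astrocyte markers summed to 791 to 4488 CPM in naive OL RNA and to 1655 to 10867 CPM on dpi 42, where 1 of them, Gfap, was called up. The 4 endothelial markers stayed low in OL RNA, at 4.29 to 4.97 CPM in naive libraries and 7.53 to 17.3 CPM after injury, with 3, 2 and 3 of them up on the 3 days. The part of these cell types in the changes of OL RNA was not tested. In such bulk RNA, fewer cells of a type and less RNA per cell cannot be told apart. The replicates are separate pools of mice.

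Levels were compared between genes per length. In naive OL RNA, Ezh1 was the most abundant member, at 20.9 ± 2.11 CPM per kb of exon (SD, n = 3). It was followed by Kdm1a (15.2 ± 1.06) and Phf1 (8.73 ± 1.38). Jarid2 (5.06 ± 0.675) and Suz12 (4.97 ± 0.295) overlapped, as did Eed (2.86 ± 0.173), Mtf2 (2.18 ± 0.712) and Rcor3 (2.16 ± 0.296) with their neighbours in this order. Ezh2 (1.14 ± 0.0728) and Phf19 (0.165 ± 0.0315) were the lowest, each apart from the gene above it. In naive total RNA the upper end was flatter, since Ezh1 (9.91 ± 0.150 CPM per kb), Kdm1a (9.45 ± 0.609) and Phf1 (9.19 ± 0.573) had overlapping libraries. Ezh2 and Phf19 were again lowest, at 0.502 ± 0.0313 and 0.175 ± 0.0319 CPM per kb. The order shifted most on dpi 2 in total RNA, where Ezh1 (5.38 ± 0.555) stood behind Kdm1a, Phf1 and Suz12, and Ezh2 (2.11 ± 0.425) overlapped Jarid2.

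The methyltransferase genes moved in opposite directions on dpi 2. Ezh1 (ENSMUSG00000006920, GRCm38 chromosome 11, 101191115 to 101226463, minus strand) gave 166, 163 and 137 CPM in the naive OL libraries and 76.0, 105 and 53.1 CPM in the dpi 2 OL libraries. Every dpi 2 OL library lay below every naive one. The fitted fall was -0.99 ± 0.17 on the log2 scale (SE, q = 6.2e-05), where q stands for the p of edgeR's quasi-likelihood test after Benjamini-Hochberg adjustment over 17167 genes. Ezh1 was back at 169.6, 136 and 142 CPM on dpi 10 and at 132, 124 and 151 CPM on dpi 42. Neither day differed from naive in the test (q = 0.890 and 0.389), and both differed from dpi 2 (log2 0.93 ± 0.17, q = 3.0e-04, and 0.79 ± 0.17, q = 0.00193). These contrasts between days were added after the values against naive had been seen.

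In total RNA, Ezh1 fell from 75.0, 73.1 and 73.0 CPM in naive cord to 44.3, 39.8 and 36.0 CPM on dpi 2 (log2 -0.88 ± 0.17, q = 2.4e-04). It was still lower on dpi 10, at 49.5, 50.2 and 48.3 CPM (log2 -0.58 ± 0.17, q = 0.00975), a call lost with library sizes alone (-0.40, q = 0.0537) and with a total RNA library as the TMM reference (-0.43, q = 0.0663). On dpi 42 the libraries read 69.1, 56.2 and 68.3 CPM, all below the naive ones, but the difference of -0.19 ± 0.16 did not pass the test (q = 0.452). The dpi 10 fall in total RNA was therefore seen without a fall in OL RNA on that day, where the log2 difference was -0.06 ± 0.16. The difference between these changes, 0.52 ± 0.20, did not pass the test (q = 0.152).

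Ezh2 (ENSMUSG00000029687, chromosome 6, 47530139 to 47595341, minus strand) gave 8.15, 7.36 and 7.27 CPM in naive OL RNA and 13.8, 15.5 and 9.87 CPM on dpi 2. The dpi 2 libraries were all above the naive ones (log2 0.78 ± 0.23, q = 0.00944). The call was lost without naive OL replicate 2 or without dpi 2 OL replicate 2, with values from 0.58 over all left-out libraries. On dpi 10, at 8.27, 9.51 and 9.17 CPM, and on dpi 42, at 6.61, 5.45 and 7.28 CPM, Ezh2 did not differ from naive in the test (q = 0.526 and 0.474). It was lower on dpi 42 than on dpi 2 (log2 -1.02 ± 0.23, q = 0.00359).

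In total RNA the rise of Ezh2 was larger. The naive libraries read 3.11, 3.51 and 3.42 CPM, from 95 to 109 counts, and the dpi 2 libraries 13.4, 17.2 and 11.6 CPM, a fitted rise of 4.20-fold (log2 2.07 ± 0.24, q = 7.5e-07; 1.90 without the pool with Y-linked counts). On dpi 10 they read 6.70, 7.70 and 8.75 CPM, still above every naive library (log2 1.20 ± 0.23, q = 3.8e-04), and on dpi 42 5.04, 3.06 and 4.27 CPM (q = 0.393). The fall from dpi 2 to dpi 10 (log2 -0.87 ± 0.23, q = 0.0193) was not called without the dpi 2 pool with Y-linked counts (-0.70, q = 0.111), while the fall to dpi 42 was (-1.77 ± 0.23, q = 4.3e-05; without that pool -1.60).

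**Figure D1:**
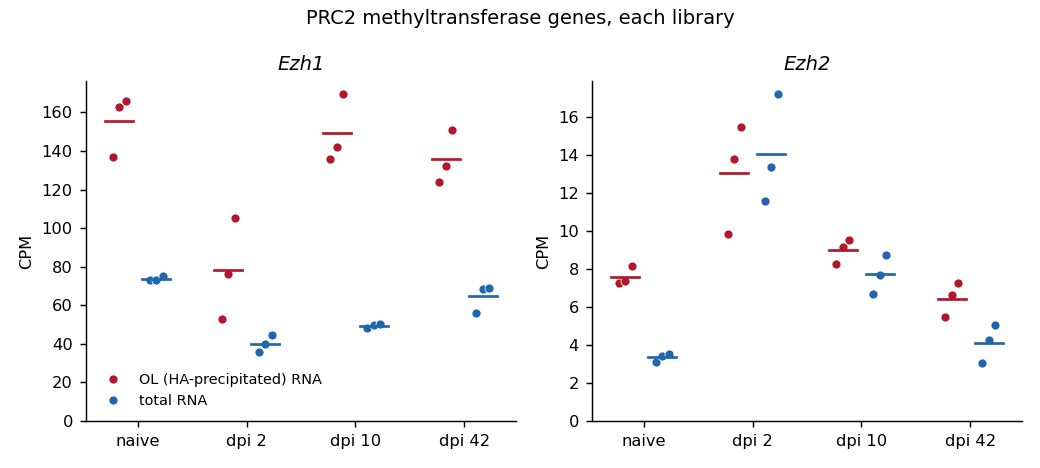
CPM of Ezh1 (left) and Ezh2 (right) in each of the 24 libraries, by day and kind of RNA; points are libraries and lines group means. Ezh1 was lower on dpi 2 in both kinds of RNA, and Ezh2 was higher on dpi 2 in both and on dpi 10 in total RNA.

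Cell division genes rose on dpi 2, when Ezh2 rose, and many were still up later. All 15 proliferation genes (among them Mki67, Top2a and Mcm2) rose in total RNA on dpi 2, and their summed level went from 54.8 to 58.6 CPM in naive libraries to 455 to 500.3 CPM. In OL RNA 11 of the 15 rose on dpi 2, and the sum went from 130.4 to 161 CPM to 183 to 223 CPM. Beside these, 37.2% of all genes were called in either direction in total RNA and 38.4% in OL RNA. Those that rose were 2810 and 3154 of 17167 genes. In OL RNA 9 and 8 of the 15 were up on dpi 10 and dpi 42, beside 18.2% and 33.1% of all genes called in either direction (1652 and 2787 genes up). Ezh2 was not called in OL RNA on those days. In total RNA the numbers up were 12 and 9, beside 32.1% and 22.5% of all genes called in either direction (2392 and 1781 genes up). Mki67, a protein of dividing nuclei, was at 0.193 CPM in naive and 8.96 CPM in dpi 2 OL RNA, and at 0.582 and 69.4 CPM in total RNA. The part of dividing cells, microglia or macrophages in the rise of Ezh2 was not tested.

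The share of Ezh2 in the sum of both methyltransferase transcripts does not depend on how libraries are scaled. Per kb of exon, Ezh2 made up 5.18% ± 0.387 of this sum in naive OL RNA (SD, n = 3), 14.1% to 17.2% on dpi 2 (SD 1.70), 6.38% ± 1.09 on dpi 10 and 5.02% ± 0.309 on dpi 42. In total RNA the shares were 4.82% ± 0.352, 28.1% ± 3.88, 14.8% ± 1.85 and 6.58% ± 0.904. Ezh1 exceeded Ezh2 in each of the 24 libraries, from 2.08-fold in a dpi 2 total library to 21.6-fold in a naive total library. Naive OL and naive total RNA had overlapping shares, whereas on dpi 2, dpi 10 and dpi 42 every total library lay above every OL library of that day. The log2 ratio of Ezh2 to Ezh1 counts was higher in the 9 injured total libraries (mean -2.73) than in the 3 naive ones (mean -4.46), with no overlap (exact permutation test, two-sided p = 0.00909, the smallest it can give; 0.0273 adjusted over 3 comparisons). In OL RNA the difference of 0.69 did not pass (exact permutation p = 0.227), since only dpi 2 stood clear of naive. The ratio in OL RNA was lower than in total RNA of the same tissue in 10 of 12 pools, among them all 9 injured pools and 1 of 3 naive pools, with a mean difference of -0.67 ± 0.65 (SD, n = 12 pools). Taken as 12 against 12 separate libraries this difference did not pass (permutation test, p = 0.122). An exact permutation test within pools, added after the values had been seen, gave p = 0.00635 (0.0136 adjusted over 3 comparisons).

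**Figure D2:**
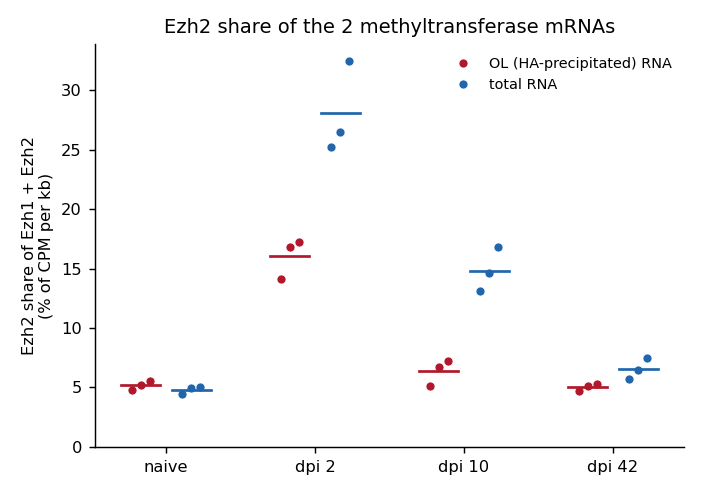
Share of Ezh2 in the sum of Ezh1 and Ezh2, in percent of CPM per kb of exon, in each library; points are libraries and lines group means. The dpi 2 total libraries reached 25.2% to 32.5% and the dpi 2 OL libraries 14.1% to 17.2%, against 4.42% to 5.56% in naive libraries.

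Phf19 (ENSMUSG00000026873, chromosome 2, 34893757 to 34914026), whose product is a Polycomb-like subunit that binds chromatin, rose with Ezh2 in total RNA. It gave 0.820, 1.06 and 0.761 CPM in naive total libraries, from 24 to 33 counts, and 4.31, 5.20 and 3.78 CPM on dpi 2 (5.01-fold, log2 2.32 ± 0.58, q = 0.00307). The dpi 10 libraries, at 2.08, 1.82 and 1.26 CPM, were above the naive ones without passing the test (q = 0.214). In OL RNA it stayed between 0.411 and 1.72 CPM in all 12 libraries, from 11 to 45 counts, and was not called on any day. At that depth an SE of 0.57 on the log2 scale leaves moderate changes undetectable.

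Eed (ENSMUSG00000030619, chromosome 7, 89954654 to 89980983), the subunit that reads the methyl mark, was the other member that rose in total RNA on dpi 2, from 10.2, 11.5 and 9.86 CPM to 15, 16.5 and 16.6 CPM (log2 0.61 ± 0.21, q = 0.0245). Its q reached 0.0822 when single libraries were left out, naive replicates 1 or 3 or dpi 2 replicates 2 or 3. In OL RNA the dpi 2 libraries spread from 11.1 to 19.5 CPM around naive values of 10.5 to 11.7 CPM, and the change of 0.47 ± 0.21 was not called (q = 0.0822). It was called by DESeq2 (0.51, q = 0.0414), with library sizes alone (0.64, q = 0.0199) and without the pool with Y-linked counts (0.65, q = 0.0225).

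Because Ezh2 and Phf19 rose together in total RNA on dpi 2 while Ezh1 fell, their promoters are shown. RefSeq windows from 250 bases before to 50 bases after the start were found for all 10 members (12 windows, GRCm38.p6), and 2 motifs were searched on both strands, the CCAAT box (CCAAT) bound by NF-Y and an E2F site (GCGGGAA). No match of one motif overlapped a match of the other in the members. CCAAT occurred at least once in 37.4% of all 32851 windows and at least 3 times in 3.37%. GCGGGAA occurred in 4.6%. The Ezh2 window held CCAAT 3 times, at 90, 64 and 11 bases before the start, and no GCGGGAA. The Phf19 window held GCGGGAA at 208 bases before the start and no CCAAT, the Ezh1 window held neither, and Suz12 was the other member with GCGGGAA. One of the 2 windows of Mtf2, a member called in no comparison of the main edgeR fit, also held CCAAT 3 times. The longest stretches before the start that no annotated exon overlaps are printed 5′ to 3′, with motif matches in capitals (2 of the 3 in Ezh2 and the one in Phf19 lie inside), for Ezh2 (chr6:47595059-47595183, minus strand), Ezh1 (chr11:101226464-101226713, minus strand) and Phf19 (chr2:34914027-34914215, minus strand). The start meant here is that of the RefSeq window. The Ezh2 stretch lies inside the annotated gene, which runs to 47595341, whereas the Ezh1 and Phf19 stretches lie outside theirs. A match is a description of the sequence and does not show that a factor binds.
Ezh2: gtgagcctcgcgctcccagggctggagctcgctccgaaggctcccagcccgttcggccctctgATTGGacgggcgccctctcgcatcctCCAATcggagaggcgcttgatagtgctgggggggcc
Ezh1: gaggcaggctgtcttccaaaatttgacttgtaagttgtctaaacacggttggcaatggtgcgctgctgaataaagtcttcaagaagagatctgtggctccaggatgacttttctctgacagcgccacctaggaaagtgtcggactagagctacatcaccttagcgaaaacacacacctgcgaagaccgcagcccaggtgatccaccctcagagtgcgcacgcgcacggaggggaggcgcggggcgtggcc
Phf19: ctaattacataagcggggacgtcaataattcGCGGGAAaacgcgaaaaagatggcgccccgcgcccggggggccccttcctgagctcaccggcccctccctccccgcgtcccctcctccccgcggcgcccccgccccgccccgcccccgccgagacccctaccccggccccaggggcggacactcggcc

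Suz12 (chromosome 11, 79993106 to 80034123), the scaffold of PRC2, and Jarid2 (chromosome 13, 44729474 to 44921643), a DNA-binding accessory subunit, were lower late after injury. Suz12 in total RNA went from 32.2, 33.9 and 35.1 CPM in naive cord to 22.6, 25.3 and 23.9 CPM on dpi 42 (log2 -0.50 ± 0.14, q = 0.0166). Jarid2 went from 26.2, 26.2 and 29.9 CPM to 18.9, 19.4 and 18.2 CPM (log2 -0.54 ± 0.18, q = 0.0328). All dpi 42 total libraries lay below all naive ones for both genes. Of the 24 fits that each left out a library, 10 lost the Suz12 call (-0.54 to -0.40) and 17 the Jarid2 call (-0.57 to -0.44). A fit with an offset for length and GC content gave -0.31 (q = 0.178) for Suz12 and -0.39 (q = 0.180) for Jarid2, and without the dpi 42 pair of contradictory labels Jarid2 had q = 0.0625. With library sizes alone neither was called (-0.37, q = 0.0771, and -0.41, q = 0.0957). In OL RNA on dpi 42 the changes were -0.32 ± 0.15 for Suz12 and -0.42 ± 0.18 for Jarid2, and neither was called (q = 0.0999 and 0.0750). With a total RNA library as the TMM reference, both were called there (-0.45, q = 0.0186, and -0.55, q = 0.0224). In that fit neither was called in total RNA (-0.39, q = 0.0652, and -0.43, q = 0.113).

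Phf1 (ENSMUSG00000024193, chromosome 17, 26933052 to 26937908), another Polycomb-like subunit, was the member that rose in OL RNA on dpi 42. Its OL libraries read 29.1, 35.7 and 26.4 CPM in naive cord, 26.1, 37.8 and 33.2 CPM on dpi 2, 32.3, 42.0 and 38.3 CPM on dpi 10 and 45.9, 45.8 and 49.9 CPM on dpi 42. The dpi 42 libraries stood above all others (log2 0.63 ± 0.14 against naive, q = 0.00116; 0.54 ± 0.14 against dpi 2, q = 0.00803). In total RNA the dpi 42 libraries, at 41.2, 37.6 and 42.0 CPM, were also above the naive 29.8, 33.7 and 32.6 CPM without passing the test (log2 0.33 ± 0.14, q = 0.0897). This change was called by DESeq2 (0.37, q = 0.0433), with library sizes alone (0.46, q = 0.0156), with a total RNA library as the TMM reference (0.44, q = 0.0290) and with only the compared groups in the fit (0.44, q = 0.00461). With the offset for length and GC content, the OL change was 0.25 (q = 0.271). Of the 3486 exonic bases of Phf1, 1370 overlap the antisense gene Cuta, and the strand setting of the counting is not given in the sources used here. Reads of the pair may therefore not be separated. Cuta itself rose in OL RNA on dpi 42 (log2 0.87 ± 0.13, q = 2.8e-05) and on dpi 2 (0.92 ± 0.13), when Phf1 did not pass the test (0.09 ± 0.14, q = 0.671).

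Mtf2, the remaining Polycomb-like subunit (chromosome 5, 108065674 to 108109004), was not called in any comparison of the main edgeR fit. Its OL libraries ranged from 8.19 to 16.3 CPM in naive cord and from 6.01 to 10.0 CPM on dpi 42 (log2 -0.56 ± 0.24, q = 0.0786). This fall was called with a total RNA library as the TMM reference (-0.70, q = 0.0326). With library sizes alone, Mtf2 was lower in OL than in total RNA in naive cord (-0.72, q = 0.0333). In that fit it was also lower on dpi 10 (-1.01, q = 0.00599) and dpi 42 (-0.79, q = 0.0245). The medians of all genes there were -0.82, -0.82 and -0.74. It overlaps the antisense gene Tmed5 over 395 exonic bases.

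Kdm1a (ENSMUSG00000036940, chromosome 4, 136550540 to 136602723), the demethylase of CoREST, fell in OL RNA on dpi 2. The naive OL libraries read 78.8, 84.1 and 73.1 CPM and the dpi 2 libraries 54.5, 41.7 and 58.2 CPM, with no overlap (log2 -0.61 ± 0.13, q = 9.5e-04; -0.48 without the dpi 2 pool with Y-linked counts, q = 0.00828). On dpi 10 it stood at 73.3, 62.3 and 61.7 CPM (q = 0.201) and on dpi 42 at 67.1, 68.1 and 53.1 CPM (q = 0.0666), where every library was below naive. The offset for length and GC content gave calls on dpi 10 (-0.39, q = 0.0317) and dpi 42 (-0.42, q = 0.0158). The dpi 42 fall was also called with a total RNA library as the TMM reference (-0.46, q = 0.0110). So it was without the pool with Y-linked counts (-0.33, q = 0.0380). In total RNA Kdm1a stayed between 37.3 and 52.6 CPM in all 12 libraries and was not called on any day. The difference between its OL and total changes on dpi 2, -0.51 ± 0.17, did not pass the test (q = 0.0673). It passed with DESeq2 (-0.50, q = 0.0335), with a total RNA library as the TMM reference (-0.76, q = 0.0104) and without the pair of contradictory labels (q = 0.0496).

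Rcor3 (ENSMUSG00000037395, chromosome 1, 192098546 to 192138062), a CoREST scaffold, fell in OL RNA on dpi 42. It gave 29.0, 33.6 and 25.6 CPM in naive OL libraries and 15.6, 11.9 and 25.2 CPM on dpi 42 (log2 -0.74 ± 0.22, q = 0.0138). The highest dpi 42 library lay just below the lowest naive one. The call was lost in 3 of the fits that left out a library (naive OL replicate 2, dpi 42 OL replicates 1 and 2), with values from -1.17 to -0.57, without the pair of contradictory labels (-0.66, q = 0.0699), and with the offset for length and GC content (-0.27, q = 0.422). In total RNA Rcor3 ranged from 11.2 to 17.1 CPM over all days and was not called.

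**Figure D3:**
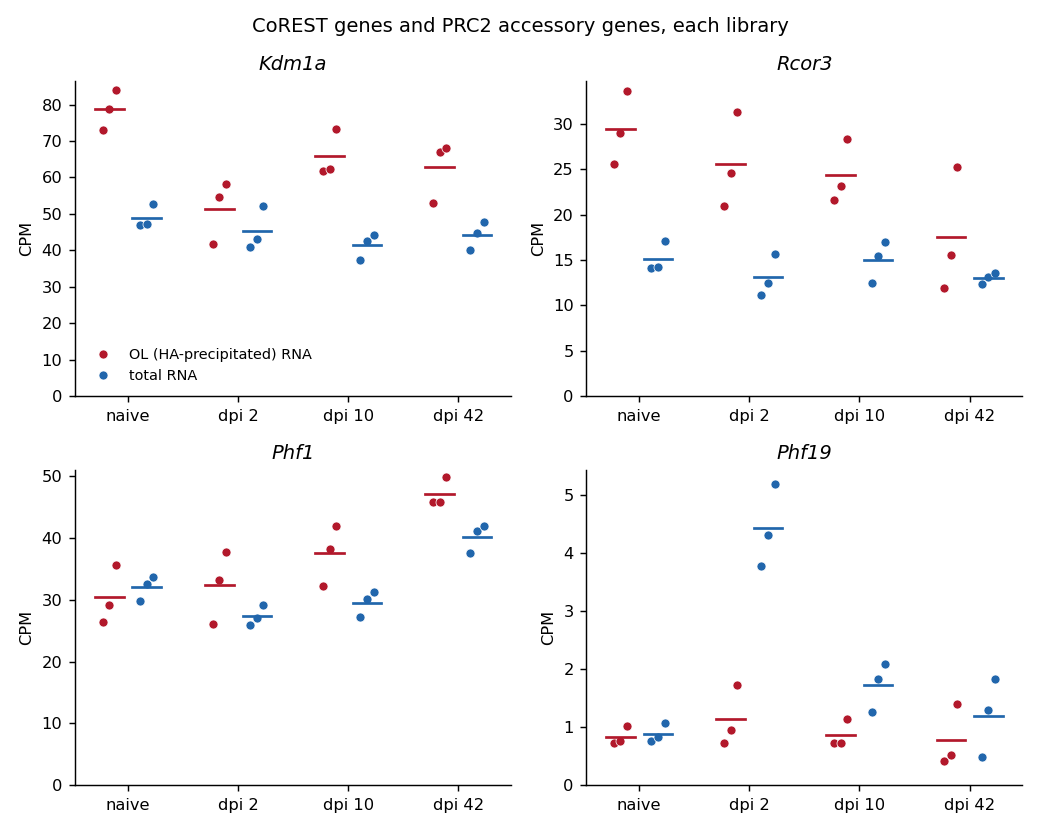
CPM of Kdm1a, Rcor3, Phf1 and Phf19 in each library; points are libraries and lines group means. Kdm1a was lower in dpi 2 OL RNA, Rcor3 lower and Phf1 higher in dpi 42 OL RNA, and Phf19 higher in dpi 2 total RNA.

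Counted over the members, 3 of 10 were called in OL RNA on dpi 2 (Ezh2 up, Ezh1 and Kdm1a down), where 38.4% of all tested genes were called. None was called on dpi 10 (18.2% of all genes). Phf1 was the member with an unadjusted p of edgeR under 0.05 on dpi 10 (q = 0.140), and DESeq2 called no member either. On dpi 42, 2 of 10 were called (Phf1 up, Rcor3 down; 33.1% of all genes). In total RNA 4 of 10 were called on dpi 2 (37.2% of all genes), 2 on dpi 10 (Ezh2 up, Ezh1 down; 32.1%) and 2 on dpi 42 (Suz12 and Jarid2 down; 22.5%). Against dpi 2, OL RNA gave 1 call on dpi 10 (22.3% of all genes) and 3 on dpi 42 (17.6%), and total RNA gave 1 on dpi 10 (7.84%) and 4 on dpi 42 (10.8%), the latter being Ezh1 and Phf1 up and Ezh2 and Phf19 down. The Phf19 fall (-1.88 ± 0.57, q = 0.0366) was not called without the pool with Y-linked counts (-1.75, q = 0.111) or without the pair of contradictory labels (-1.51, q = 0.0846). The median log2 change of the 10 members lay between -0.28 and 0.03 in the comparisons with naive, and that of all genes between -0.10 and 0.00. The 3 comparisons of a kind of RNA share their naive libraries.

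**Figure D4:**
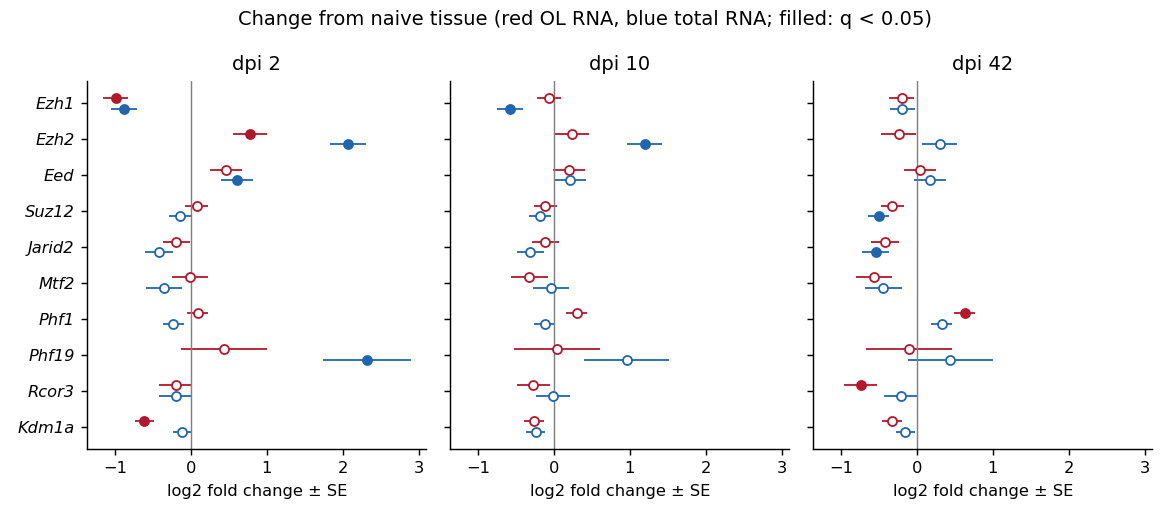
Log2 change from naive for the 10 members on dpi 2, dpi 10 and dpi 42, with SE bars; red is OL RNA, blue is total RNA, and filled points have q under 0.05. On dpi 2 Ezh1 stood at -0.99 and -0.88 and Ezh2 at 0.78 and 2.07 in OL and total RNA, and Phf19 was at 2.32 in total RNA.

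OL enrichment, the level in OL RNA over that in total RNA of the same pools, separated the members. In naive cord 6 of 10 were called (53.5% of all genes), and in this and the next counts the median over all genes was -0.31 in naive cord and -0.24 on each day after injury. Ezh2 was OL enriched by 1.18 ± 0.24 (log2, q = 0.00101), Ezh1 by 1.07 ± 0.14 (q = 2.3e-05), Rcor3 by 0.95 ± 0.22, Jarid2 by 0.84 ± 0.17 and Kdm1a by 0.68 ± 0.12. Suz12 was lower in OL RNA (-0.46 ± 0.16, q = 0.0254), a call lost with the offset for length and GC content (-0.12, q = 0.578). Eed, Mtf2, Phf1 and Phf19 lay between -0.20 and 0.06 and were not called. OL enrichment rests on the scaling between unlike libraries. With library sizes alone the median of all genes was -0.82 in naive cord, and Ezh1 and Ezh2 were still called there while Jarid2 (0.32), Rcor3 (0.44) and Kdm1a (0.17) were not.

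After injury Ezh1 and Jarid2 were OL enriched on all 3 days (dpi 2, 10 and 42). Ezh1 stood at 0.91 ± 0.14, 1.59 ± 0.14 and 1.07 ± 0.14 in that order, and Jarid2 at 1.02 ± 0.18, 1.05 ± 0.18 and 0.95 ± 0.18. Rcor3 was enriched on dpi 2 (0.96 ± 0.23) and dpi 10 (0.70 ± 0.22), and its 0.36 ± 0.23 on dpi 42 was not called (q = 0.211). With library sizes alone it was called on neither dpi 2 (0.39, q = 0.128) nor dpi 10 (0.12, q = 0.637), and with the offset for length and GC content it was called on dpi 42 (0.94, q = 0.00360). Kdm1a was enriched on dpi 10 (0.67 ± 0.12) and dpi 42 (0.50 ± 0.12), but stood at 0.09 (q = 0.571) and -0.0027 with library sizes alone. On dpi 2 its 0.18 ± 0.12 was not called (q = 0.243), while it was called lower with library sizes alone (-0.39, q = 0.0202) and higher with the offset (0.48, q = 0.00386). Ezh2 was not enriched in the test on dpi 2 (-0.12 ± 0.23, q = 0.709) or dpi 10 (0.23 ± 0.24, q = 0.454). On dpi 42 it was (0.66 ± 0.24, q = 0.0348), a call lost without the pair of contradictory labels (0.44, q = 0.209) and with library sizes alone (0.16, q = 0.584). Phf19 was depleted on dpi 2 (-2.04 ± 0.77, q = 0.0402), a call lost without the pool with Y-linked counts (-1.65, q = 0.182). Suz12 stood at -0.26 ± 0.16, -0.39 ± 0.16 and -0.30 ± 0.16 on the 3 days and was not called (q = 0.195, 0.0569 and 0.135). Several alternatives called it lower on dpi 10, among them DESeq2 (-0.47, q = 0.0144) and a total RNA library as the TMM reference (-0.51, q = 0.0155). That reference also called it lower on dpi 42 (-0.42, q = 0.0390). The counts were 4 of 10 on each of the 3 days, beside 51.2% of all genes each time.

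**Figure D5:**
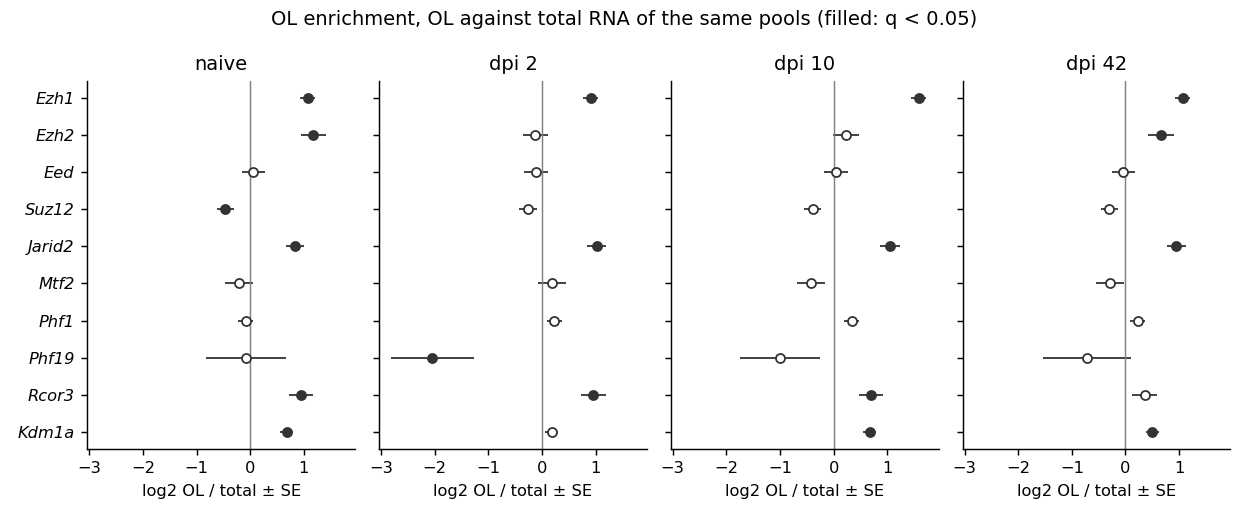
OL enrichment (log2 of OL over total RNA, with SE bars) of the 10 members in naive cord and on the 3 days; filled points have q under 0.05. Ezh1 and Jarid2 were enriched in all 4 groups, and Ezh2 went from 1.18 in naive cord to -0.12 on dpi 2.

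Differential OL enrichment, the change of OL enrichment from naive, was called for Ezh2 on dpi 2 (log2 -1.30 ± 0.34, q = 0.0225), 1 of 10 members beside 13.3% of all genes. The value was -1.28 (q = 0.0633) without the pool with Y-linked counts, and the call was also lost without naive pool 1 or naive pool 2. On dpi 10 it was -0.95 ± 0.34 (q = 0.116) and on dpi 42 -0.52 ± 0.34 (q = 0.457). No member was called on dpi 10 (7.63% of all genes) or dpi 42 (7.85%) by edgeR. On dpi 10, Ezh1, Ezh2 and Phf1 had an unadjusted p under 0.05, and DESeq2 called Ezh2 (-0.98, q = 0.0218). On dpi 42 the smallest unadjusted p of a member was 0.0826, for Rcor3, and DESeq2 called none. Of the proliferation genes, 5 of 15 also lost OL enrichment on dpi 2.

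Of 6 further subunit genes 5 were tested. Aebp2, a partner of Jarid2 in PRC2.2, was lower in OL RNA on each day (log2 -0.43 ± 0.13, -0.41 ± 0.13 and -0.53 ± 0.13; q = 0.0113, 0.0290 and 0.00288). Epop, a subunit of PRC2.1, rose in OL RNA on dpi 2 from 2.38 ± 0.824 to 6.32 ± 1.74 CPM (SD, n = 3; log2 1.41 ± 0.40, q = 0.00738) and gained OL enrichment (2.27 ± 0.52, q = 0.0114). Lcor, whose locus also encodes a PRC2.1 cofactor, fell in OL RNA on dpi 42 from 1.96 ± 0.783 to 0.0498 ± 0.0862 CPM. That last mean lies under the 0.105 to 0.117 CPM that 3 counts stand for in those libraries, so the size of the fall is uncertain. The list's median change lay between -0.25 and -0.14 in OL RNA and between -0.29 and -0.27 in total RNA, and that of all genes between -0.10 and 0.00.

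Among 12 partners of CoREST, all tested, 1 rose and 6 fell in OL RNA on dpi 2, with a median of -0.49 beside 0.00 for all genes, of which 38.4% were called. Zmym2, a zinc finger partner, went from 68.7 ± 5.68 to 32.3 ± 4.63 CPM (log2 -1.09 ± 0.14, q = 3.0e-06), its paralog Zmym3 changed by -0.85 ± 0.15 and Gse1 by -0.65 ± 0.14. Hmg20b, an HMG-box partner, rose (0.60 ± 0.13, q = 0.00109). The later days gave 1 up and 3 down (dpi 10) and 1 up and 5 down (dpi 42), beside 18.2% and 33.1% of all genes called, with Zmym2 at -0.55 ± 0.14 and -1.06 ± 0.14. Kdm1b, the second demethylase of the KDM1 family, fell on dpi 42 (-0.96 ± 0.19, q = 4.5e-04) and lost OL enrichment (-0.98 ± 0.24, q = 0.0254). In total RNA 2 rose and 4 fell on dpi 2, with Zmym2 at -1.20 ± 0.14 and the deacetylase gene Hdac1 up by 0.89 ± 0.15. Of the 12 partners 6 were OL enriched in naive cord and none was called lower. Of all 17167 genes, 4187 were enriched there and 5001 lower, 53.5% in either direction. The enriched partners included Rest, the repressor that recruits CoREST to neuronal genes (1.46 ± 0.21), and Hdac1 (1.29 ± 0.16).

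Kdm6a and Kdm6b remove the methyl mark that PRC2 places. Kdm6a fell in OL RNA from 51.1 ± 10.2 CPM in naive cord to 20.9 ± 6.68 CPM on dpi 2 (SD, n = 3; log2 -1.29 ± 0.25, q = 2.6e-04). It stood at 32.8 ± 5.27 CPM on dpi 10 (q = 0.0735) and 23.6 ± 3.17 CPM on dpi 42 (-1.12 ± 0.25, q = 0.00135). In total RNA it fell on dpi 2 (-0.83 ± 0.24, q = 0.0102). Kdm6b, an inducible gene of the pair, was not called against naive in either kind of RNA on any day, with changes from -0.36 ± 0.22 to 0.33 ± 0.22.

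PRC1 is the complex that ubiquitinates histone H2A. Of its 20 genes, OL RNA had 2 up and 5 down on dpi 2, then 1 up and 4 down, and 2 up and 6 down on the last day, with medians of -0.13, -0.21 and -0.25. Of all genes 38.4%, 18.2% and 33.1% were called on these days, near the shares of PRC1 genes, and those down outnumbered those up on dpi 2 (3432 against 3154) and dpi 42 (2894 against 2787). Cbx7, a reader of the methyl mark, went from 39.8 ± 2.76 to 16.7 ± 3.66 CPM in OL RNA on dpi 2 (log2 -1.25 ± 0.18, q = 1.1e-05), and Rybp (-1.19 ± 0.17), Phc3 (-1.15 ± 0.19) and Phc1 (-0.89 ± 0.15) fell with it. Total RNA had 2 up and 5 down on dpi 2 and 2 up and 3 down on dpi 10. Phc1 and Phc2 were OL enriched in naive cord by 2.20 ± 0.16 and 1.46 ± 0.09. Of 8 genes for the H2A deubiquitinase and Trithorax complexes, 5, 1 and 5 fell in OL RNA on the 3 days, with medians of -0.55, -0.17 and -0.38, and 6, 3 and 3 fell in total RNA. Called in either direction were 38.4%, 18.2% and 33.1% of all genes in OL RNA and 37.2%, 32.1% and 22.5% in total RNA. Kmt2c, a methyltransferase that marks enhancers, went from 92.1 ± 3.34 to 36.7 ± 3.38 CPM in OL RNA on dpi 2 (-1.33 ± 0.14, q = 2.6e-07).

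Genes that textbooks give as targets of PRC2 were scarce in OL RNA. Of 28 such genes 24 were tested, and they summed to 17.8 to 23.9 CPM in naive OL RNA and 20.2 to 31.5 CPM after injury, against 95.2 to 133 CPM in total RNA. The calls in OL RNA were 3 up and 2 down on dpi 2, 1 up and 1 down (Foxc1 and Bmp2) on dpi 10, and 3 up and 2 down on dpi 42, of 24 genes, beside 38.4%, 18.2% and 33.1% of all genes. The median change on dpi 2 was 0.17, or -0.02 with the 15 genes that had a group at 3 counts or fewer set to that floor, beside 0.00 for all genes. Foxc1, a forkhead factor known from mesenchyme, rose in OL RNA from 0.242 ± 0.177 CPM to 1.65 ± 1.41 CPM on dpi 2 and 3.09 ± 0.431 CPM on dpi 10, and in total RNA from 2.20 ± 0.763 to 15.3 ± 4.40 and 20.9 ± 1.86 CPM. Bmp2, a secreted ligand, fell in OL RNA from 9.88 ± 1.41 to 4.45 ± 0.692 CPM on dpi 2 (log2 -1.15 ± 0.30, q = 0.00443). In naive cord 6 of the 24 were lower in OL RNA than in total RNA, with Pax2 at -4.32 ± 0.25. Of all 17167 genes, 5001 were lower there, so this count does not set the list apart.

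Across the 24 libraries, the genes most like Ezh1 were Fbxo21 (Pearson r of log2 CPM 0.973), Tmem178b (0.966) and Sort1 (0.965), of 13677 genes with a mean of at least 1 CPM. Those most like Ezh2 were Krcc1 (0.896), Cdc42 (0.890) and Calu (0.874). For Kdm1a they were Ints4 (0.926), Specc1l (0.925) and Vps35l (0.922), and for Rcor3 Ctcf (0.911), Atf7ip (0.904) and Myo18a (0.903). These values describe libraries that share the contrast of OL with total RNA and the same days. Within the members, Ezh1 and Ezh2 ran against each other in total RNA (r = -0.89 over 12 libraries) and less so in OL RNA (r = -0.50 over 12).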

How the data were processed

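RNA of 12 tissue pools was sequenced as 24 libraries. Per the labels and the study's methods, the authors aligned reads to mm10 with STAR, checked them with FastQC 0.10.1 and deposited raw counts per gene from HTSeq 0.10.0, whose strand setting is not given in the sources used here. Libraries held 25840127 to 32987841 counts (median 29062636), so a level rests on counting error as well as on the spread between pools, and 3 counts were taken as the floor.

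Genes whose counts summed to 10 or more were tested with edgeR 4.0.16 (R 4.3.3), using TMM scaling and the quasi-likelihood test, with Benjamini-Hochberg adjustment over 17167 genes and a call at q under 0.05. Changes from naive and between days used 8 group means. OL enrichment and its change used the 12 tissue pools as a block, since OL and total RNA came from the same tissue. The correlation of deviations within a pool ran from -0.0476 to 0.263 over the 12 pools. On dpi 42 it was -0.0476, 0.00597 and 0.0206, against -0.0581 to 0.0422 between different pools. The pairing of dpi 42 libraries therefore rests on the labels alone. Ratios of Ezh2 to Ezh1 were compared with permutation tests (scipy 1.17.1, 100000 resamples where not exact), and OL with total RNA also within pools, a test added after the values had been seen. CPM use TMM library sizes. The script was tested on simulated data. Alternatives were other scalings, filters, an offset for length and GC content, DESeq2 1.42.0, a replicate block and left-out libraries.

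The members and gene lists were chosen with earlier results of these data known. Named genes of a list were the called ones with the smallest unadjusted p, at most 4 per list and comparison, besides all members and both demethylases. Some items that this rule would name are not reported here. The genes most like Ezh1, Ezh2, Kdm1a and Rcor3 were the 3 with the highest Pearson r.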

Additional observations from a re-analysis of the deposited data

Results flagged for a closer look

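Ezh2 changed differently in OL RNA and in total RNA on dpi 2. Its rise from naive was 0.78 in OL RNA and 2.07 in total RNA on the log2 scale, and the difference of -1.30 ± 0.34 passed edgeR's quasi-likelihood test (q = 0.0225). The call was lost without the dpi 2 pool with Y-linked counts (-1.28, q = 0.0633) and without naive pool 1 or naive pool 2. All dpi 2 libraries of both kinds lay above all naive libraries of their kind. The part of cells without the HA tag in the total RNA was not tested.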

How the results depend on the processing

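Across the alternatives, Ezh1 and Kdm1a in OL RNA and Ezh1, Ezh2 and Phf19 in total RNA stayed called on dpi 2 (Ezh1 in OL RNA from -1.32 to -0.82, Ezh2 in total RNA from 1.9 to 2.29). Numbers of members called that moved by over 1.5 times, or from 0, were as follows, and smaller shifts of 1 or 2 members are not listed. With DESeq2 size factors, total RNA on dpi 42 gave 1. With library sizes alone, OL RNA on dpi 10, total RNA on dpi 10 and total RNA on dpi 42 gave 1 each and OL enrichment on dpi 2 gave 8. With a total RNA library as the TMM reference, OL RNA on dpi 42 gave 6, total RNA on dpi 10 and dpi 42 gave 1 each and differential OL enrichment on dpi 2 gave 2. With the offset for length and GC content, OL RNA on both later days gave 1 each, total RNA on dpi 42 gave 0, and dpi 10 against dpi 2 in OL RNA and dpi 42 against dpi 2 in total RNA gave 2 each. DESeq2 gave 2 for OL RNA on dpi 10 against dpi 2, 2 for differential OL enrichment on dpi 2 and 1 on dpi 10. Without the dpi 2 pool with Y-linked counts, total RNA on dpi 10 against dpi 2 and differential OL enrichment on dpi 2 gave 0 each. Without the dpi 42 pair of contradictory labels, OL and total RNA on dpi 42 gave 1 each and differential OL enrichment on dpi 2 gave 2. With only the compared groups in the fit, OL RNA on dpi 42 gave 1, total RNA on dpi 10 gave 4, OL RNA on dpi 42 against dpi 2 gave 0, total RNA on dpi 10 against dpi 2 gave 2 and differential OL enrichment on dpi 10 gave 1.

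Leaving out each library gave 1 to 6 calls for OL RNA on dpi 42, 1 to 2 for total RNA on dpi 10, 0 to 3 for total RNA on dpi 42, 1 to 2 and 3 to 5 for OL RNA on dpi 10 and dpi 42 against dpi 2, 0 to 1 and 2 to 5 for the same in total RNA, and 0 to 2 for differential OL enrichment on dpi 2. The injured minus naive log2 ratio of Ezh2 to Ezh1 in total RNA ranged from 1.54 to 1.91. It was not called without a naive total library. With so few naive libraries left, the permutation test could not pass after adjustment over the 3 comparisons. The OL minus total difference of this ratio, -0.67, was called when paired by tissue pool, a test added after seeing the data. OL enrichment turned negative with library sizes alone for Aebp2 (-0.06) and Smarca4 (-0.05) in naive cord, for Phf1 (-0.34), Kdm1a (-0.39), Aebp2 (-0.26) and Zmym3 (-0.25) on dpi 2, and for Kdm1a (-0.0027), Phf21a (-0.02), Smarca4 (-0.05) and Arid1a (-0.10) on dpi 42. With the offset, Kdm6b on dpi 42 was at 0.04. The cause was not tested. The median OL enrichment of all genes was -0.82 to -0.74 with library sizes alone. Of all genes called in OL RNA on dpi 2, 47.9% rose, against 61.6% with library sizes alone, and in naive OL enrichment 45.6% were higher, against 25.0%. The replicate number does not mark shared tissue across days, and a fit with it as a replicate block kept the side of the threshold for all 60 values, with 3, 0, 4 and 2 members called where the text gives these counts. Without the tissue pool block, OL enrichment on dpi 10 gave 6 members.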
